A study of Mus musculus with 4 samples.

Results

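Neutrophil-rich spots of the infarcted mouse heart 1 day after injury are described here, from a spatial transcriptomics section in which each spot is a small region that can hold several cells of different types. The spots were chosen by the share of their UMIs (unique molecular identifiers, each standing for 1 captured transcript molecule) that came from S100a8 and S100a9. A spot of the day 1 section was eligible when hemoglobin transcripts, named Hba- or Hbb-, made up at most 1% of its UMIs and when it held at least 500 UMIs, which left 1884 of 2151 spots. The 5% of eligible spots with the highest share were taken, giving 94 neutrophil-rich spots of the 9102 spots in the 4 sections. They were set against the 1355 eligible day 1 spots with 0 UMIs of both genes, and 435 spots with some UMIs but a lower share lay between. Because S100a8 and S100a9 chose the spots, their own values are a description, and so is every other gene of the same spots.

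The series holds 4 Visium sections of ICR mouse hearts after myocardial infarction, made by tying off for good the LAD, the left anterior descending coronary artery that feeds the front wall of the left ventricle. The mice were adults, the hearts were embedded fresh and frozen, and the sections were taken on days 1, 4, 7 and 14 after ligation, with 1 mouse per day. No section of an uninjured or sham-operated heart was analysed here, so the comparison spots also come from the ligated heart. With 1 section per day there is no replicate of any group, and no difference was tested. Intervals of ratios and levels cover counting error only. Those of shares of spots take the spots as independent draws, which neighbouring spots of the same section are not.

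Neutrophils are the first white blood cells to enter an infarct in large numbers. They leave the blood through adhesion molecules of the vessel wall, follow chemokines that bind CXCR2, release granule proteases, and make superoxide with the NADPH oxidase. S100A8 and S100A9 form calprotectin, a calcium- and zinc-binding protein pair that is abundant in the neutrophil cytoplasm and is also made by monocytes, so the pair marks both cell types. Granulocyte genes are controlled by transcription factors that include PU.1 and the C/EBP family.

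S100a8 and S100a9 defined the spots. Retnlg, a resistin-like protein secreted by mouse neutrophils, had the highest ratio, from few UMIs, among the other neutrophil genes described. The promoters of these genes are shown for that reason. They run 5′ to 3′ on the gene's strand, from 250 bases before the RefSeq start to the last base before the gene's first annotated base, in the mouse build GRCm38.p6, with S100a8 at chr3:90668821-90668977 on the plus strand, S100a9 at chr3:90695722-90695971 on the minus strand and Retnlg at chr16:48872358-48872607 on the plus strand. Capitals mark matches, on either strand, to TTGCNNAA, a C/EBP motif, or to GAGGAA, a PU.1 core motif, and the motifs do not overlap here.
S100a8: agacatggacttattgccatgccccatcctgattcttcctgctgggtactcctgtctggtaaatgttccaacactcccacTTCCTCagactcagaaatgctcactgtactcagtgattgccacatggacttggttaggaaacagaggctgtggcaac
S100a9: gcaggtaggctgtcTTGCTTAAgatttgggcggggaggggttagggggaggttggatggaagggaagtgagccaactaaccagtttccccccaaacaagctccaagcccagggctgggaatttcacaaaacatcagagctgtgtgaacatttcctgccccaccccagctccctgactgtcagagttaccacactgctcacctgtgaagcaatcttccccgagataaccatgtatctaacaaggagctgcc
Retnlg: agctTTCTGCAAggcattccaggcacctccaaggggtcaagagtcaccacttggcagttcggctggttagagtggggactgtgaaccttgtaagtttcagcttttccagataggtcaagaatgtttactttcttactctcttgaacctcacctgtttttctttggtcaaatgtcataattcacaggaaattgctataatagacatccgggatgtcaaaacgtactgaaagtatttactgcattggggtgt

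The match in S100a8 was the PU.1 motif, and those in S100a9 and Retnlg were the C/EBP motif, starting 170, 236 and 246 bases before the RefSeq start. Another PU.1 match in S100a8, starting 36 bases before the RefSeq start, lay past the printed stretch. The promoter of Csf3r, a neutrophil receptor gene, was looked at too but is not shown. Its stretch before the first annotated base held 0 matches, and its PU.1 match, 86 bases before the RefSeq start, lay past it. Over windows of 300 bases, from 250 before to 50 after the start, 69.4% of 36 promoters of the other neutrophil genes held GAGGAA, against 28.3% of all 32851 promoters. TTGCNNAA was in 27.8% of them, against 10.8% of all promoters. The 22 promoters of cardiomyocyte contractile genes held the motifs in 31.8% and 13.6% of cases. These promoters belonged to 35 of the 40 other neutrophil genes, and a match is a stretch of letters and not a measured binding site.

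The limit on the share fell at 7.47 S100a8 and S100a9 UMIs per 10000, and the share had a median of 10.8 and a maximum of 60.8 per 10000 among the neutrophil-rich spots. The last spots inside the limit held 1 of 1339, 5 of 6679 and 2 of 2670 UMIs, and the first outside it held 1 of 1340, 4 of 5391 and 4 of 5392. A spot of at most 1339 UMIs therefore passed with 1 UMI. Of the 94 spots, 12 held 1 UMI of the pair, 10 held 2, 29 held 3 to 5, 31 held 6 to 10 and 12 held more than 10, up to 19. Both genes were seen in 70 spots, S100a8 alone in 15 and S100a9 alone in 9. The rule thus mixes spots with a strong signal and shallow spots with a few molecules.

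Summed over the neutrophil-rich spots there were 269 UMIs of S100a8 and 276 of S100a9, which is 42.2% of all UMIs of the pair in eligible spots from 3.65% of the UMIs. The pair's level was 1251 CPM, that is UMIs per 1000000 UMIs of the spots (95% Poisson interval 1148 to 1360), against 247.5 in the positive spots under the limit. S100a8 lies at chr3:90668978-90670035 and S100a9 at chr3:90692632-90695721 in the mm10 build, as neighbours on opposite strands. The day 1 section held 12640454 UMIs. Neutrophil-rich spots were shallower, with a median of 4717 UMIs and a range of 862 to 9565, than 0-UMI spots, with a median of 6287, while the median number of genes detected was similar, 1817.5 against 1830. When each spot was thinned to 2000 UMIs before the spots were chosen, the 1844 genes at least 2-fold higher and 585 lower described further on became 1119 and 373.

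A section lists spots by barcodes of a shared layout, so 1647, 1700 and 1918 of the day 1 barcodes recur on days 4, 7 and 14 and stand for other tissue. Hemoglobin transcripts, a measure of red blood cells, were at 976 CPM in neutrophil-rich spots and 1037 in 0-UMI spots after the 1% limit. In spots, fewer cells of a type and less RNA per cell cannot be told apart.

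The other neutrophil genes were first asked whether the name of these spots holds beyond the pair that chose them. Of 40 such genes 29 had at least 1 UMI in the neutrophil-rich spots and 30 in the 0-UMI spots, but only 11 reached the 100 UMIs over eligible spots that a gene needed to be counted. The rest are described where they had at least 20 UMIs over both spot groups. Some of these, Retnlg, Il1r2 and Cxcr2 among them, had under 20 UMIs in the 0-UMI spots and passed only through the neutrophil-rich spots. Their ratios are therefore a description and no check of the name. Retnlg had 17 UMIs in the 94 neutrophil-rich spots and 5 in the 1355 others, 39.1 against 0.588 CPM, a log2 ratio of 6.05 (95% interval 4.56 to 7.85). It was seen in 12 spots, so most neutrophil-rich spots showed none.

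Of 15 genes for neutrophil receptors and surface proteins 4 were counted, and these were higher. Csf3r, the receptor for the growth factor G-CSF, had 31 UMIs against 26, that is 71.2 against 3.06 CPM and a log2 ratio of 4.54 (3.74 to 5.35). It was found in 25.5% of neutrophil-rich spots and in 1.77% of 0-UMI spots. Il1r2, a decoy receptor for interleukin 1, had a log2 ratio of 4.18 from 13 and 14 UMIs. Clec4d, a lectin receptor of myeloid cells, had 3.94, and Itgam, the integrin chain CD11b, had 3.55 from 39 and 65 UMIs. Cxcr2, the receptor that guides neutrophils along CXC chemokines, had 3.29 (1.95 to 4.52) from 9 and 18 UMIs, and Ccr1, a CC chemokine receptor, had 3.08. All 4 counted genes of the receptor list were past 2-fold, and the list summed to 372 CPM against 29.98. The count limit took in UMIs of all eligible spots, the neutrophil-rich and other positive spots included. Csf3r and Itgam, with 26 and 65 UMIs in 0-UMI spots, reached it only with UMIs of spots that held the pair. That all 4 counted genes were higher is therefore a description and no check of the name. Across all genes counted, 23.2% were at least 2-fold higher and 7.35% at least 2-fold lower in neutrophil-rich spots.

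Granule and other neutrophil genes split. Adam8, a metalloprotease of granules, had a log2 ratio of 3.51 (2.87 to 4.14), and Mmp9, gelatinase B, had 3.31 (2.62 to 3.98). Mxd1, a partner of MAX that opposes MYC, had 2.78, Slfn4, a Schlafen protein of myeloid cells, had 2.64 and Gda, guanine deaminase, had 2.15. Chil3, a chitinase-like protein of myeloid cells, had 1.91 from 10 and 52 UMIs. Lcn2, an iron-sequestering protein that stressed tissue also makes, had 0.37 (-0.09 to 0.79), and Lrg1, a secreted glycoprotein that vessels also make, had 0.46 (0.16 to 0.74). These last genes were well represented in 0-UMI spots, at 83.8 and 181 CPM.

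Several defining neutrophil genes had no UMI in either group. These were Ly6g, the surface protein used to sort mouse neutrophils, the granule genes Ltf, Ngp, Elane and Ctsg, and Ms4a3, a gene of granulocyte precursors. Csf3, the gene for G-CSF itself, is listed here with the neutrophil-attracting chemokines and also had no UMI in either group. A count of 0 in the neutrophil-rich spots allows up to 6.89 CPM. Mpo had 0 UMIs against 1, Camp 1 against 0 and Mmp8, a granule collagenase, 3 against 0. Granule genes of neutrophil precursors thus mostly had no UMI or very few in these spots, and the reason was not tested.

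The spots with other neutrophil transcripts were counted as well. At least 1 UMI of the 40 genes was found in 89.4% of neutrophil-rich spots (95% Clopper-Pearson interval 81.3% to 94.8%), in 66.6% of 0-UMI spots (64.1% to 69.2%) and in 92.8% (86.8% to 96.7%) of the stressed 0-UMI spots described further on, whose median depth was 6934 UMIs. After each spot was thinned to 2000 UMIs, with 22, 75 and 16 shallower spots left out, the shares were 79.2%, 40.3% and 78.9%. Lcn2 and Lrg1 supplied 76.2% of these UMIs in 0-UMI spots, 65.3% in stressed 0-UMI spots and 32.0% in neutrophil-rich spots. Without them, a choice made after their values were seen, the shares as deposited were 86.2% (77.5% to 92.4%) in neutrophil-rich spots, 28.6% (26.2% to 31.0%) in 0-UMI spots and 72.0% (63.3% to 79.7%) in stressed 0-UMI spots, and 72.2%, 12.5% and 40.4% after thinning.

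**Figure D1:**
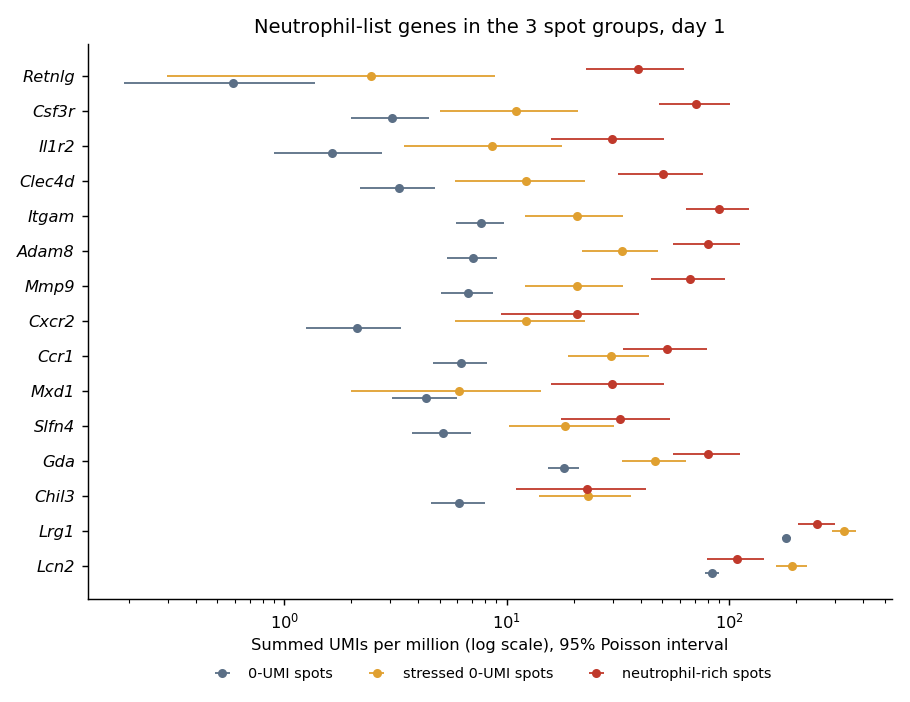
Each point is the summed level of a neutrophil gene in CPM (horizontal log axis) in the 0-UMI spots, the stressed 0-UMI spots and the neutrophil-rich spots of the day 1 section, with 95% Poisson intervals as bars. Retnlg, Csf3r, Clec4d and Itgam stand apart from both comparison groups, while Lcn2 and Lrg1 were highest in the stressed 0-UMI spots.

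Across all 7954 genes counted, 1844 were at least 2-fold higher and 585 at least 2-fold lower in neutrophil-rich spots. The whole interval lay past 2-fold for 538 genes (6.76%) and 63 genes (0.792%). Each count of list members past 2-fold against 0-UMI spots stands beside 23.2% higher and 7.35% lower over all genes. The median log2 ratio over all genes was 0.44, beside smaller shares of mitochondrial and contractile transcripts, which fill much of a heart spot. TMM scaling, which removes such a shift, moved every ratio down by 0.62 and gave 586 higher and 1531 lower genes, and centring on the median gave 802 and 1199. The excess of higher genes thus depends on the scaling, and ratios between 0 and 0.62 turn negative with TMM scaling.

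**Figure D2:**
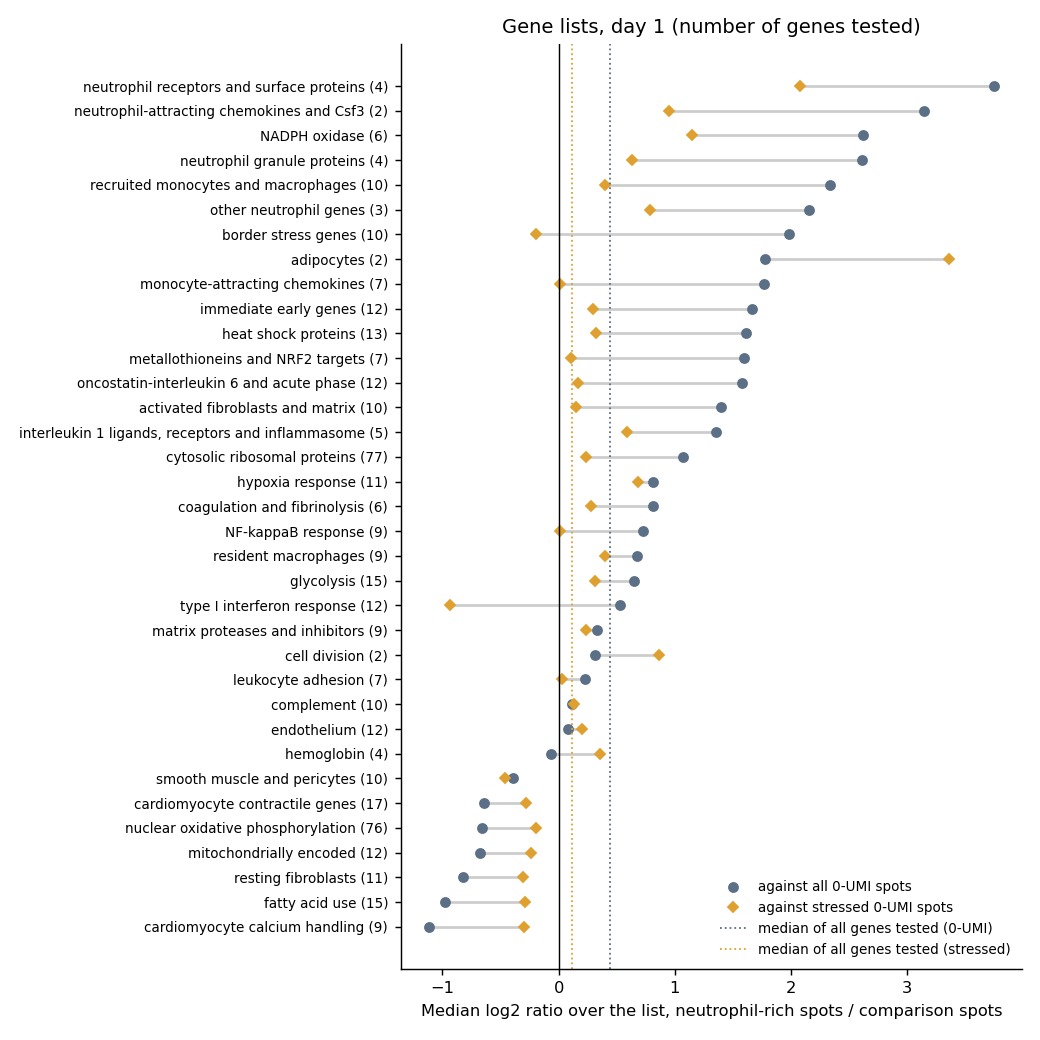
Each row is a gene list, with the number of its genes counted in brackets, and the horizontal axis is the median log2 ratio of the list in neutrophil-rich spots over all 0-UMI spots (circles) or over stressed 0-UMI spots (diamonds). Neutrophil receptors reached 3.75 and 2.08 and heat shock genes 1.61 and 0.32. The border stress list chose the stressed spots, so its second value is not independent of that choice.

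The NADPH oxidase was higher as a whole. All 6 subunits were past 2-fold against the 23.2% of all genes, with a median log2 ratio of 2.62. Ncf4, a cytosolic subunit, had 28 and 58 UMIs and a ratio of 3.24 (2.53 to 3.91). Ncf4 and others of the 6 reached the count limit only with UMIs of spots that held the pair. Together the 6 genes had 708 UMIs in 0-UMI spots. That all 6 were higher is therefore a description and no check of the name. Rac2, the GTPase that switches the enzyme on in blood cells, had 2.78, and Ncf1, another cytosolic subunit, had 2.49. The membrane subunits Cybb and Cyba had 2.27 and 1.71, and Cyba, which is expressed in many cell types, was the most abundant at 152 against 46.3 CPM.

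Chemokines that bind CXCR2 were higher in the same spots. Cxcl1, made by many injured cells, had 101 against 10.5 CPM and a log2 ratio of 3.27 (2.72 to 3.81), and Cxcl5 had 165 against 20.5 and a ratio of 3.02. Cxcl1 reached the count limit only with UMIs of spots that held the pair. Below the count limit, Cxcl3 had 4.19 from 14 and 15 UMIs, and Ccl4, a CC chemokine put on this list, had 3.84. Of 7 monocyte-attracting chemokines 6 were past 2-fold, against 23.2% of all genes, with a median of 1.77. Ccl6 had 2.96 (2.73 to 3.18) and 542 CPM, Ccl9 had 2.77, Ccl2, the main ligand of CCR2, had 2.51, and Ccl7 had 1.77.

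Interleukin 1 genes were led by Il1b, which was named after its values were seen because it had too few UMIs to be counted. Il1b, the secreted inflammatory cytokine, had 33 UMIs against 16 and a log2 ratio of 5.33 (4.43 to 6.29), and was found in 23 neutrophil-rich spots. The antagonist Il1rn had 3.36 from 20 and 38 UMIs and the signalling receptor Il1r1 had 1.86. The alarmin Il33 had 1.35, but -0.04 when S100a9 alone chose the spots. Of 5 counted genes of this list 3 were past 2-fold, against 23.2% of all genes, with a median of 1.35. Pycard, the inflammasome adaptor, had 0.90. Il1rn reached the count limit only with UMIs of spots that held the pair, so the 3 of 5 is a description.

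Inflammatory response genes followed to different degrees. In the oncostatin, interleukin 6 and acute phase list 10 of 12 genes were past 2-fold, with a median of 1.58. Il11, a cytokine of the interleukin 6 family, had 3.37, Hp, haptoglobin, had 2.72, Socs3, a feedback inhibitor, had 1.95 and Cebpb had 1.69. In the NF-kappaB list 4 of 9 genes were past 2-fold, with a median of 0.72. Tnfaip6 had 2.32 and the inhibitor Nfkbia had 1.39 (0.80 to 1.94), whereas Sod2, the mitochondrial superoxide dismutase that muscle also expresses, had -0.68 (-0.90 to -0.47).

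Adhesion and complement lists were mixed. Receptors carried by leukocytes were higher, with log2 ratios of 3.28 for Cd44, 2.63 for the integrin chain Itgb2 and 2.29 for Selplg, the ligand of P-selectin. Endothelial members were not, with 0.23 for Icam2 and -0.29 (-0.93 to 0.29) for Jam2. In the complement list the receptors C5ar1 and C3ar1 and the stabiliser Cfp, properdin, had 2.42, 2.03 and 2.03, though C3ar1 had -0.22 after the spots were thinned before choosing. Serping1, the C1 inhibitor, had -1.66 (-2.45 to -0.98), and C1s1, a protease of the classical pathway, had -1.10. The medians of the adhesion and complement lists, 0.23 and 0.12, fell below 0 under TMM scaling and under centring.

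Monocyte and macrophage genes were higher in the same spots as the neutrophil genes. All 10 counted genes of the recruited monocyte and macrophage list were past 2-fold, against 23.2% of all genes. The interval lay wholly past 2-fold for 7 of them. Their median was 2.33, beside 0.44 over all genes, and the list summed to 2298 against 445 CPM. Arg1, arginase, had 121 and 166 UMIs and a log2 ratio of 3.83 (3.48 to 4.18), and was seen in 52.1% of neutrophil-rich spots and 8.12% of 0-UMI spots. Ccr2, the receptor that brings monocytes into tissue, had 3.37, Spp1, osteopontin, had 3.06, Cd14 had 2.79, Thbs1 had 2.78, and Lyz2, lysozyme, had 1.77. Genes of both lists were thus higher in these spots. The lists do not separate neutrophils from monocytes within a spot, and S100a8 and S100a9 can come from either cell type.

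Resident macrophage genes differed less. Of 9 counted genes 3 were past 2-fold, with a median of 0.67, namely Csf1r with 1.51, the mannose receptor Mrc1 with 1.26 and F13a1 with 1.09. C1qc, a subunit of the C1q complex, had -0.36 (-1.10 to 0.30). Of the dendritic cell list, H2-Aa, an MHC class II chain shared by several antigen-presenting cells, had 2.60. Of the platelet list, Pf4, which macrophages can also express, had 2.12, but it was the sole gene of 8 with a UMI in the neutrophil-rich spots and the platelet integrin Itga2b was at 0.

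Genes of other cell types gave the following. T, NK and B cell genes summed to 32.2 CPM against 11.4, and mast cell and eosinophil genes to 11.5 against 3.53, with no gene of either list counted. Of these, Siglecf, a surface protein of eosinophils, had 3 UMIs against 1, a ratio of 5.87 on the log2 scale with an interval from 2.23 to 11.59. Atrial genes had no UMI in the neutrophil-rich spots, with 43 in the 0-UMI spots. Mesothelial genes summed to 20.7 against 14.5, and within them Wt1 had a log2 ratio of 2.14 from 7 and 31 UMIs, which was -1.37 after thinning before choosing.

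Of 12 endothelial genes 1 was past 2-fold higher and 2 lower. Pecam1, the junction protein CD31 that myeloid cells also carry, had a log2 ratio of 1.23. The water channel Aqp1 had -1.06 and the receptor Tie1 had -1.62 (-4.68 to 0.27) from 2 and 120 UMIs. The list median of 0.08 changed sign under TMM scaling and centring. Smooth muscle and pericyte genes had a median of -0.40, with Rgs5, a pericyte marker, at -1.15 as the 1 gene past 2-fold of 10.

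Fibroblast genes split by state. Of 11 genes of resting fibroblasts 5 were lower and none higher, with a median of -0.82. Gsn, gelsolin, had -1.29 (-1.47 to -1.12), Mgp, an inhibitor of calcification, had -0.82 and Dcn, decorin, had -0.77. Of 10 counted genes of activated fibroblasts and matrix 8 were higher and none lower, against 23.2% and 7.35% of all genes, with a median of 1.40. Tnc, tenascin C, had 2.89 (2.51 to 3.25), Fn1, fibronectin, had 2.81, the crosslinking enzyme Lox had 2.13, and Col1a1 had 1.26.

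Adipocyte transcripts were concentrated in few spots. Cfd, adipsin, and Car3, a carbonic anhydrase of fat and muscle, were the counted genes of this list, with log2 ratios of 1.99 (1.55 to 2.40) and 1.56 (0.98 to 2.09). Of the 114 UMIs of the list in neutrophil-rich spots 63 lay in 2 spots, and of the 58 of Cfd 37 lay in 2 spots. At least 1 UMI was seen in 35 spots for the list and in 18 for Cfd. Adipoq, adiponectin, had 1.41 from 6 and 44 UMIs, and -0.06 when members were limited to the 72 with at least 3 UMIs of the pair.

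Cardiomyocyte lists had negative medians. Of 17 contractile genes 6 were at least 2-fold lower, against 7.35% of all genes, and 1 was higher, with a median of -0.64. Myh6, the adult myosin heavy chain, had 2661 against 9719 CPM and a log2 ratio of -1.87 (-1.95 to -1.79). Its level had a median over spots of 2219 CPM in neutrophil-rich spots and 10355 in 0-UMI spots, with ranges that overlapped. Tcap, telethonin, had -2.19, Tnni3, troponin I, had -1.39, Mb, myoglobin, had -1.27 and Myl2 had -1.24. Csrp3, a muscle LIM protein that responds to stretch, went against its list with 1.10 (1.03 to 1.17), and Actc1, cardiac actin, had 0.19, which turned negative under TMM scaling and centring.

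Calcium handling and fuel use were lower too. Of 9 calcium genes 6 were at least 2-fold lower, against 7.35% of all genes, with a median of -1.11. Pln, phospholamban, had -1.37 and Atp2a2, the calcium pump it inhibits, had -1.07. Of 15 genes of fatty acid use 7 were lower, with a median of -0.97. Fabp3, which carries fatty acids in the cell, had -1.81, Acsl1, which activates them, had -1.77 and Lpl, which releases them from blood lipids, had -1.61. Among 76 nuclear genes of oxidative phosphorylation 2 were at least 2-fold lower, a smaller share than the 7.35% of all genes, with a median of -0.66. All 12 counted mitochondrially encoded genes lay between -0.86 and -0.29.

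Among all genes, those with the most negative upper bounds included several of heart muscle. Dhrs7c, an enzyme of the sarcoplasmic reticulum, had 5 UMIs against 1203 and a log2 ratio of -3.62 (-5.25 to -2.40). Mlf1 had -3.73, Lrtm1 had -3.01, and Kcnip2, a subunit of cardiac potassium channels, had -2.63. Asb14 had 1 UMI against 347 and a ratio of -4.15 (-9.46 to -1.66). Car14, a membrane carbonic anhydrase, had -2.82, Ttll1 -2.71, Htra3, a serine protease, -2.31, the potassium channel Kcnk3 -2.24, Hopx -2.18, Fhl2 -2.09 and Asb2 -2.04. Timp4, a metalloprotease inhibitor abundant in heart, had 0 UMIs against 178, at least 3.04-fold lower with a floor of 3 counts over the neutrophil-rich spots.

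The opposite held for genes of the stressed border of an infarct, which injured but living cardiomyocytes switch on. Of 10 such genes 9 were past 2-fold, with a median of 1.98, and the list summed to 24873 against 6877 CPM. Ankrd1, a stretch-responsive protein of the sarcomere, had 7223 against 2150 CPM and a ratio of 1.75. Its median over spots was 5952 CPM against 622 in 0-UMI spots. Sprr1a had 3.12, Xirp2 2.38, Flnc, filamin C, 2.36, Nppa, the atrial natriuretic peptide gene, 2.10 and Acta1, skeletal actin, 1.90. Myh7, the fetal myosin heavy chain, had -0.61 (-0.89 to -0.33).

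**Figure D3:**
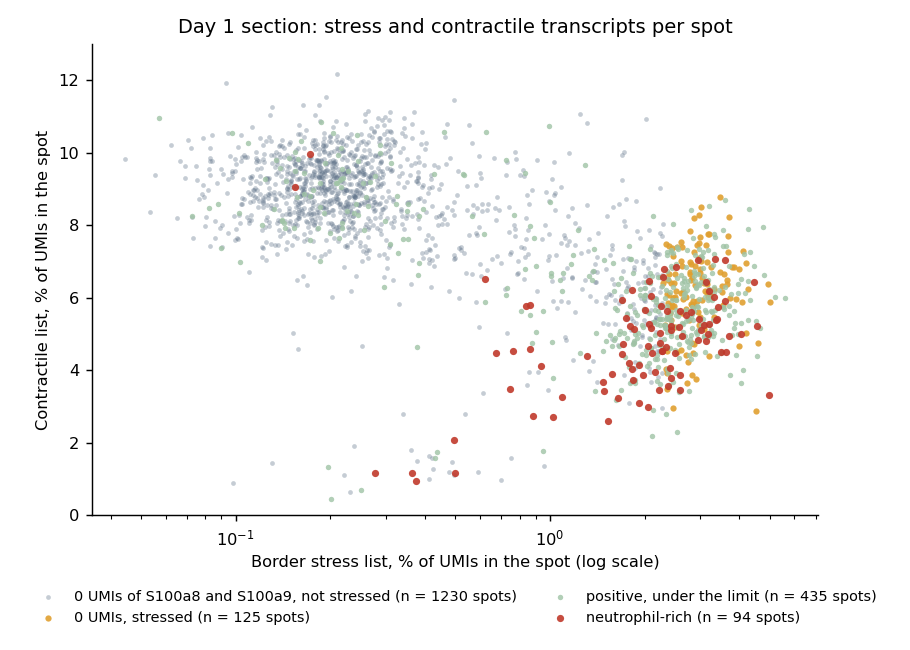
Each point is an eligible spot of the day 1 section, by the percent of its UMIs in the border stress list (horizontal log axis) and in the contractile list (vertical axis), with colours for the 4 spot groups. Of the 94 neutrophil-rich spots 78 had at least 1% of UMIs in stress genes, and 1062 of the 1355 0-UMI spots lay under 1%.

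Spot by spot, contractile genes took a median of 4.89% of UMIs (0.936% to 9.96%) in neutrophil-rich spots and 8.63% in 0-UMI spots. Border stress genes took 2.23% (0.154% to 4.99%) against 0.244%, mitochondrially encoded genes 17.1% against 27.3%, and cytosolic ribosomal proteins 8.71% against 3.67%. The spots did not form a uniform class. In 6 of them contractile genes were under 3% and stress genes under 1%, and in 2 contractile genes were above 9%.

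Stress programs were higher as well. Of 13 heat shock genes 8 were past 2-fold, with Hspa1a at 2.55, Hspb1 at 2.45 and Cryab, the abundant muscle chaperone, at 1.71. Of 12 immediate early genes 8 were past 2-fold, against 23.2% of all genes, with Fos at 2.23, Ier3 at 2.19, Myc at 2.15 and Atf3 at 2.11. Of 7 metallothioneins and NRF2 targets 5 were past 2-fold, with the heme-degrading enzyme Hmox1 at 2.05 and Mt2 at 1.83, while Nqo1 had -0.81. The medians of these lists were 1.61, 1.66 and 1.60.

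Hypoxia and sugar use differed gene by gene. Of 11 hypoxia genes 5 were past 2-fold, with a median of 0.82. Ero1l, an oxidase of the endoplasmic reticulum, had 2.46 and Adm, adrenomedullin, had 1.78, while Vegfa had 0.51 and Bnip3 had -0.01. Of 15 glycolysis genes 7 were past 2-fold, with a median of 0.65. The transporters showed the larger ratios, with 3.22 for the lactate exporter Slc16a3 and 2.23 for the glucose transporter Slc2a1, whereas the enzyme Gapdh had -0.05.

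Matrix and clotting genes were led by inducible members. Timp1, a metalloprotease inhibitor, had 764 UMIs against 2319, that is 1755 against 273 CPM and a log2 ratio of 2.69 (2.57 to 2.81). The aggrecanase Adamts4 had 3.95 (3.10 to 4.79) and Adamts1 had 1.65, and 4 of 9 counted genes of the list were higher, with a median of 0.33 that turned negative under TMM scaling and centring. The urokinase receptor Plaur had 3.64, among 6 clotting genes with 3 past 2-fold. Further genes with high lower bounds were Apln, the apelin peptide, at 3.40, Nes, an intermediate filament, at 3.23 and Lgals3, galectin 3, at 3.13.

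Ribosomal protein genes were mostly higher. Of 77 counted genes 48 were past 2-fold higher, against 23.2% of all genes, with a median of 1.07. Rpl3 had 2.22 (2.06 to 2.38) and Rps26 had 1.52. Rpl3l, the paralog of Rpl3 that striated muscle uses, was the 1 gene past 2-fold lower, with -1.89 (-2.41 to -1.42). Of the cell division list, Cdk1 had 3.09 from 17 and 39 UMIs and Cenpf had -2.46 (-5.51 to -0.59) from 2 and 215, so its median of 0.32, which turned negative under TMM scaling and centring, rests on 2 genes that disagree.

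Because 41 of the 94 neutrophil-rich spots (43.6%) were among the 20% of eligible spots with the most border stress UMIs, against 9.23% of 0-UMI spots, the same ratios were taken against the 125 stressed 0-UMI spots alone. These had at least 2.30% of UMIs in stress genes, a median depth of 6934 UMIs, and a median contractile share of 6.18%. The median log2 ratio over all genes was 0.12. At least 2-fold differences were seen for 590 genes higher (7.42%) and 374 lower (4.7%), and the interval lay wholly past 2-fold for 15 genes higher (0.189%) and 3 lower (0.0377%).

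Of the 4 counted neutrophil surface genes 3 were still past 2-fold by this measure, with a median of 2.08. Csf3r had 71.2 against 11.0 CPM and a log2 ratio of 2.69 (1.59 to 3.95), and Itgam had 2.11 (1.25 to 3.02). Clec4d had 2.05 (0.91 to 3.29) and Retnlg had 4.00 (1.92 to 7.15) from 17 and 2 UMIs. Il1b had 2.95. Mxd1, which had too few UMIs to be counted, had 2.29, and Mmp9 had 1.68 (0.77 to 2.63). Cxcr2, with 0.76 (-0.72 to 2.21), Ccr1, with 0.85, and Chil3, with -0.02, had intervals that include 0. Lcn2 and Lrg1 were lower, with -0.82 (-1.33 to -0.34) and -0.41 (-0.74 to -0.08). As a sum the granule list had 0.09 (-0.24 to 0.42), with 2 of 4 counted genes past 2-fold. The list of other neutrophil genes summed to 0.15 (-0.11 to 0.41). Its counted genes, Slfn4 and Gda among them, reached at most 0.81, with 0 of 3 past 2-fold. With the 41 members that were themselves stressed, Csf3r had 1.98 (0.57 to 3.43), Itgam 1.61 (0.53 to 2.68) and Hp 1.69 (0.70 to 2.69), and their intervals no longer lay wholly past 2-fold.

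The oxidase kept 4 of 6 genes past 2-fold, with a median of 1.15, led by Ncf4 at 1.91 and Rac2 at 1.56. Arg1 had 1.66 (1.22 to 2.10) and Ccr2 had 1.51, but the recruited monocyte list had a median of 0.40 with 2 of 10 past 2-fold. Ccl6 had 1.24, whereas Ccl2 had 0.40 and Ccl7 had 0.01 (-0.36 to 0.37). Selplg had 2.10, Hp had 2.49 (1.72 to 3.32) and Nfkbia had 1.28. Adamts4 had 2.43, Plaur 1.66 and Lgals3 1.34.

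Many lists lost most of their ratio in this comparison. The median of heat shock genes was 0.32, of activated fibroblasts 0.15 and of ribosomal proteins 0.24, and none of 13, 1 of 10 and none of 77 were past 2-fold higher. Border stress genes, which chose these comparison spots, had a median of -0.20. Their values here are not independent of that choice, and its part was not tested. Among them Nppa had -0.75 (-0.84 to -0.66). Myh7 had -1.37 (-1.68 to -1.07), beside -0.61 against all 0-UMI spots. Mgp, a gene of fibroblasts and smooth muscle, had -1.37 (-1.62 to -1.12).

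Interferon genes differed by comparison. Against all 0-UMI spots the type I interferon list had a median of 0.53, which is negative under TMM scaling, beside 0.44 over all genes. Of its 12 genes 2 were past 2-fold higher, against 23.2% of all genes. Against the stressed spots 5 of 12 were at least 2-fold lower and none higher, against 4.7% and 7.42% of all genes. The median there was -0.93 and the sum 460 against 750 CPM. No gene of the list had an interval wholly past 2-fold in either comparison. Rsad2 had -2.18, the chemokine Cxcl10 had -2.07 (-3.45 to -0.93), Ifit3 had -1.85 and Isg15 had -1.33. Outside the list, the interferon-induced GTPases Igtp and Ifi47 had -3.79 (-9.15 to -1.19) and -2.51, from 1 and 3 UMIs in neutrophil-rich spots, and Lgals9 had -1.61. AW549877 and Sphk2, a sphingosine kinase, had -3.41 and -2.85 from 1 and 2 UMIs.

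Hypoxia genes had a median of 0.68 against stressed spots, with 2 of 11 past 2-fold. Ero1l had 1.66 (0.72 to 2.65) and Egln3, an oxygen sensor that hypoxia induces, had 1.17 (0.53 to 1.81), and Bnip3 had 0.91. Of glycolysis genes Slc2a1 had 1.18, Slc16a3 had 1.14 and Pfkfb3 had 1.23.

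Fat and myelin genes were among the largest ratios of this comparison, with many of their UMIs in few spots. Mbp, a myelin protein, had 17 UMIs against 1, with 16 in 3 spots, and against all 0-UMI spots its ratio of 1.81 turned to -0.39 with at least 2000 UMIs per spot, to -2.17 after thinning before choosing, to -2.17 with at least 3 UMIs of the pair, and to -1.02 without spots holding fat or myelin genes. Cfd had 3.77 (2.69 to 5.04) and Car3 had 2.95. Csf3r, by contrast, never exceeded 3 UMIs in a spot and was spread over 24, and Hp and Trf, transferrin, over 33 and 32. Trf had 2.22, Git2, an ARF regulator, 2.91, Srgn, the granule proteoglycan serglycin, 1.54, and Igkc, an antibody light chain, 2.23. Without the 5 neutrophil-rich spots with at least 5 fat or myelin UMIs, 14 genes were higher and 4 lower with the interval past 2-fold. Cfd was still among these 14, and Car3 and Mbp were not.

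The ratios also depended on the comparison spots. Against the 116 0-UMI spots that were among the 20% of eligible spots with the lowest contractile share, Csf3r had 1.05, Clec4d 1.04, Itgam 1.28, Ncf4 1.25, Cxcr2 1.49 and Retnlg 3.99. Of these, Csf3r, Clec4d, Itgam and Ncf4 were counted genes, and none of their intervals lay wholly past 2-fold. Arg1 had 0.78, and Hp and Cfd turned to -1.34 and -1.91. Myh7 was 0.32, and Igtp and Mgp were still lower, at -2.91 and -1.16. In this comparison 2 genes, Hdac10 and Rgs12, were higher and 5, Car3, Cfd, Cnnm3, Mbp and Ndufaf1, lower with the interval past 2-fold, and these are named because they are few.

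**Figure D4:**
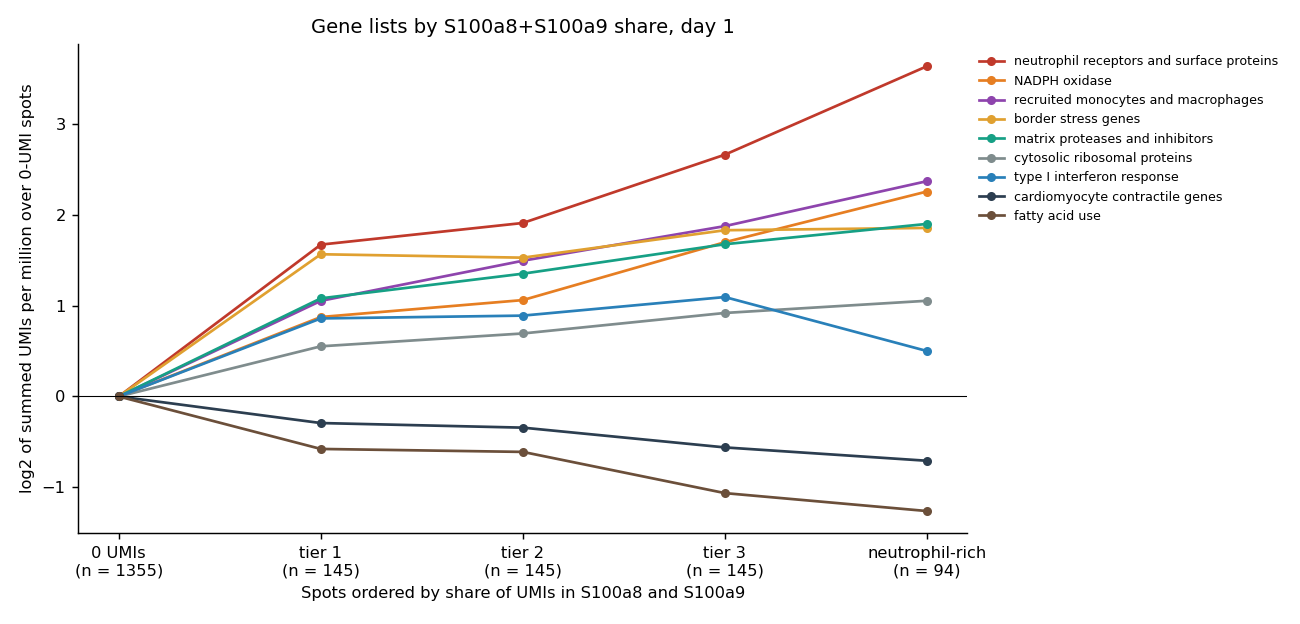
The eligible day 1 spots are ordered by their share of S100a8 and S100a9 UMIs, from 0 UMIs through 3 tiers of 145 positive spots to the 94 neutrophil-rich spots, and the vertical axis is the log2 ratio of each list's summed CPM over the 0-UMI spots. Receptor and oxidase lists climb to the last group. On this log axis their largest step, like that of border stress genes, is between 0 UMIs and the first tier. Interferon genes are lower in the last group than in the tier before it. The granule list and the list of other neutrophil genes are not drawn.

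The positive spots under the limit, cut into 3 tiers of 145, show how the lists went with the share that ordered the spots. The first tier held 145 UMIs of the pair in its 145 spots, so depth alone set the share there. Median depth was 8239, 6413 and 6034 UMIs in the tiers and 4717 in neutrophil-rich spots, and its part was not tested. Neutrophil receptors summed to 29.98 CPM at 0 UMIs, to 95.5, 113 and 190 in the tiers, and to 372 in neutrophil-rich spots. NADPH oxidase genes ran 83.2, 153, 174, 270 and 397, and recruited monocyte genes 445, 922, 1252, 1631 and 2298. Both lists were therefore higher in each step, as were the receptors. The remaining neutrophil lists changed less after the first tier. Granule genes ran 104, 232, 256, 278 and 287, and other neutrophil genes 213, 370, 379, 378 and 455.

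Other lists had a different shape. Border stress genes were at 6877 CPM at 0 UMIs, at 20349, 19824 and 24442 in the tiers, and at 24873 in neutrophil-rich spots. Interferon genes were at 325, 589, 602, 694 and then 460. Contractile genes ran 84020, 68612, 66248, 56975 and 51462, and genes of fatty acid use 16822, 11275, 11023, 8050 and 7021. Adipocyte genes, at 74.0, 29.4, 22.1, 337 and 262, had no such order.

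The neutrophil-rich spots also differed among themselves. Cut at their median contractile share, the 47 spots at or below it had nearly the same level of the pair as the 47 above, 1316 against 1208 CPM. Neutrophil receptors were at 504 against 287 CPM, recruited monocyte genes at 3357 against 1614, monocyte-attracting chemokines at 2167 against 1036, and complement genes at 703 against 340. Activated fibroblast genes were at 4903 against 3009, and adipocyte genes at 545 against 79.4. Border stress genes ran the other way, at 21006 against 27368. The median depth was 3203 UMIs in the spots at or below the cut and 5523 above it, and its part was not tested.

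The same rule in the later sections, from other mice, took spots with 148, 140 and 396 UMIs of the pair on days 4, 7 and 14, against 545 on day 1. The pair was seen in 28.1% of eligible spots on day 1 and in 8.66%, 4.92% and 4.81% on days 4, 7 and 14, at 107.9, 14.6, 15.1 and 25.2 CPM. The 40 other neutrophil genes summed to 478, 217, 123 and 75.6 CPM. The rule gave 83, 90 and 98 spots, and on days 7 and 14 these were all the positive spots, since fewer than 5% had a UMI. On day 14 their median depth was 2869 UMIs, against 8485 in 0-UMI spots.

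Several lists kept their direction on all 4 days. The oxidase had medians of 2.62, 2.05, 1.51 and 2.37 on days 1, 4, 7 and 14, and recruited monocyte genes had 2.33, 2.40, 1.93 and 2.16, beside 30.8%, 8.76% and 12.9% of all genes at least 2-fold higher and 6.95%, 3.16% and 2.99% lower on days 4, 7 and 14. Contractile genes had -0.64, -1.33, -0.55 and -0.28. The medians over all genes were 0.44, 0.61, 0.21 and 0.24.

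Other lists differed in direction or size. Border stress genes had a median of 1.98 on day 1 and -0.75, -0.33 and 0.16 later, and heat shock genes had 1.61 and then 0.37, 0.02 and 0.05. Resting fibroblast genes had -0.82 on day 1 and 0.61, 0.46 and 0.76 later, and complement genes had 0.12, 0.73, 0.95 and 2.06. Activated fibroblast genes had 1.40, 1.88, 1.49 and 2.76, and the cell division list reached 2.46 on day 4, with 5 of 6 genes past 2-fold. Differences between days were not tested, and day and mouse cannot be told apart.

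**Figure D5:**
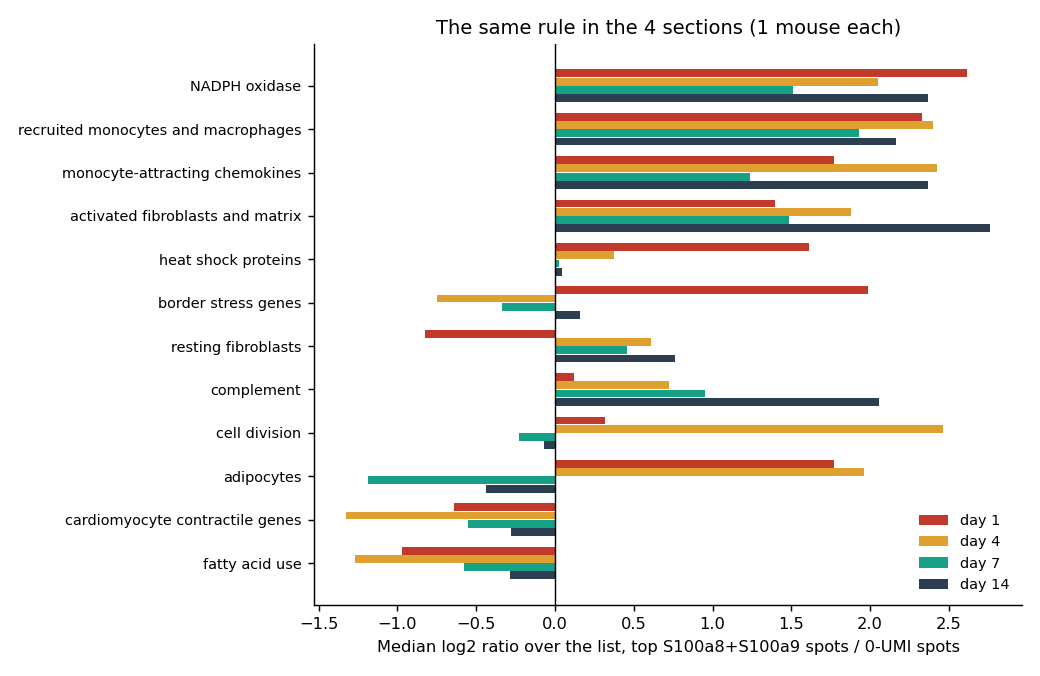
Bars give the median log2 ratio of each list in the spots with the highest S100a8 and S100a9 share over the 0-UMI spots of the same section, for the 4 days with 1 mouse each. Border stress genes were at 1.98 on day 1 and at most 0.16 later, while the oxidase list was at least 1.51 on each day.

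A few of the day 14 spots held more UMIs of the pair than any eligible spot of day 1. Of the 396 UMIs of the pair in the day 14 spots, 241 (60.9%) lay in 6 spots with at least 20 each. The highest spot held 70 against a maximum of 19 on day 1. The section without these spots had 9.88 CPM. The granule genes Ngp, Camp and Ltf, which neutrophil precursors express, had 28, 27 and 24 UMIs in the day 14 spots, with 62 of the 85 UMIs in eligible spots in those 6. On day 1 these 3 genes together had 1 UMI in all eligible spots.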

How the data were processed

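The 4 day-labelled sections, 1 mouse each, were deposited as Visium matrices of raw UMI counts per gene and spot. According to the submitters' processing notes, the authors made them with Space Ranger 1.3.0 on mm10 and analysed them with Seurat 4.1.1. Their methods removed spots with over 1% hemoglobin, and edge spots by hand. The latter step was not repeated here, so torn or folded tissue may remain. Counts come from poly-A capture over tissue regions, so free RNA and several cell types share a spot. The deposited counts were used with no further correction. Doublet calling is not meaningful for spots and was not run.

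Members and gene lists were chosen with earlier results of these data known. UMIs were summed over spots and divided by UMIs of all genes but S100a8 and S100a9. Ratios have exact conditional 95% intervals and levels Poisson intervals, which cover counting error only. Shares of spots have Clopper-Pearson intervals, which take the spots as independent draws although spots are not replicates. A gene was counted with at least 100 UMIs over eligible spots (7954 of 32285 genes), and called past 2-fold. This sum included the neutrophil-rich and other positive spots, so genes rare in 0-UMI spots could be counted through them. A group at 0 was given a floor of 3 counts. Without replicate sections no test was made. Named were the 15 genes with the highest lower bound and the 15 with the lowest upper bound against 0-UMI spots, 8 each against stressed spots (mitochondrial and hemoglobin genes left out), the most abundant and the clearest members of each of the 41 lists, up to 4 each, neutrophil genes with at least 20 UMIs, and list members opposed to their list by over 2-fold. Others are named from their values. Some genes that this rule names are not reported here.

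Spots were thinned once to 2000 UMIs (seed 1). Alternatives were other shares, depth and hemoglobin limits, count filters, scalings (edgeR 4.0.16 TMM), comparison spots and single markers. Python 3.11.15, SciPy 1.17.1, numpy 2.4.6, pandas 2.3.3, matplotlib 3.10.9 and R 4.3.3 were used. The ratio calculation was tested on simulated counts drawn independently for each gene. The simulation held no spread between spots and no choice of spots, so it checks the calculation only. Gene positions are from GENCODE on GRCm38, and promoters from RefSeq on GRCm38.p6.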

Additional observations from a re-analysis of the deposited data

Results flagged for a closer look

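The 261 day 1 spots removed for hemoglobin held 127 UMIs of S100a8 and S100a9, or 184.5 CPM (Poisson interval 154 to 220), against 107.9 in eligible spots. They entered no comparison except the alternative without a hemoglobin limit. The median depth of the removed spots was 2308 UMIs per spot.

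Some ratios were at least 2-fold in opposite directions on different days, each from 1 mouse, and none of these differences was tested. Ankrd1 had a log2 ratio of 1.75 on day 1 and -1.003 on day 4, and Csrp3 had 1.10 and -1.21. The adipocyte list had a median of 1.77 on day 1 and -1.18 on day 7, with Cfd at 1.99 and -2.11. Serping1 had -1.66 on day 1 and 1.69 on day 14.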

How the results depend on the processing

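Counts of genes past 2-fold moved with the scaling, the count filter and the use of the interval. The 1844 higher genes became 586 with TMM scaling, 802 after centring, 3198, 4110 and 255 with at least 20, 1 and 1000 UMIs per gene, 1119 when spots were thinned before choosing, and 538 when the interval had to lie past 2-fold. The 585 lower genes became 1531, 1199, 113 (at least 1000 UMIs), 373 (thinned) and 63 (interval). Against stressed spots, the 590 higher genes became 1370 with at least 20 UMIs, 346 with TMM and 15 by the interval, and the 374 lower genes 748, 591 and 3, as well as 603 against 0-UMI spots of low contractile share and 643 with stressed members alone. Of 37 list medians 19 were past 2-fold, and all 374 of their alternative values kept their sign, 344 of them past 2-fold. TMM scaling and centring shift every ratio by 0.62 and 0.44, so they could not change the sign of a value past 2-fold. Sizes were less stable. Of all 732 alternative list medians 366 moved by at least the counting error of the list's summed ratio. These included all 37 under TMM scaling and all 37 under centring. Of 3896 alternative values of named genes 747 lay outside the reported interval, besides the sign changes given next. Of 230 named genes 157 were past 2-fold, and 2651 of 2659 alternative values kept their sign. The exceptions were Mbp (-0.39 with at least 2000 UMIs per spot, -2.17 thinned, -2.17 with at least 3 marker UMIs, -1.02 without fat or myelin spots), Adipoq (-0.061 with at least 3 marker UMIs), C3ar1 (-0.22) and Wt1 (-1.37) after thinning, and Il33 (-0.040) with S100a9 alone. The cause was not tested. Limits to at least 3 marker UMIs, leaving out fat or myelin spots, and stressed members alone were added after seeing the data. No paired analysis was possible because each day has 1 section from a different mouse. Depth limits neutrophil genes of few molecules: 1 UMI decides membership in shallow spots.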
